A study of Mus musculus with 7 samples.

Results

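The blood vessel cells caught in mouse atypical teratoid rhabdoid tumours were chosen by a rule on unique molecular identifiers (UMIs), the counted RNA molecules of each cell. A cell was kept if at most 20% of its UMIs were mitochondrial and it reached 500 UMIs and 200 genes. It was selected on Ptprc at 0 UMIs, on at most 1 UMI over Tyrobp, Fcer1g and Cd3g together, and on 1 or more UMIs in at least 2 of the 6 gate genes Cldn5, Cdh5, Flt1, Emcn, Egfl7 and Rgs5. The rule found 62 cells of 23938 kept cells, and every one of them came from 1 tumour, MYC replicate 5. Only 23 of the 62 also had 2 or more of 14 endothelial identity genes outside the rule: 20 endothelial-like cells and 3 Rgs5-high cells, which carried pericyte and smooth muscle genes besides. A further 37 cells had at most 1 gene of that set and at most 1 mural identity gene, so for most of them the label vascular and mural cells is not borne out by genes outside the rule.

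The tumours arose in Rosa26-creERT2::Smarcb1 fl/fl mice, whose dams received 50 mg/kg tamoxifen at 6.5 days post coitum to delete Smarcb1, whose product is part of the SWI/SNF complex that repositions nucleosomes. The Rosa26 promoter drives the Cre in all tissues, so cells other than tumour cells could recombine too, and all 7 libraries carried the floxed alleles. The MYC subgroup had 5 libraries of 4 mice: basal cerebrum at 12 weeks (replicate 1), trigeminal nerve and lateral cerebellum of 1 mouse at 19 weeks (replicates 2 and 3), trigeminal nerve at 21 weeks (replicate 4) and basal cerebrum at 27 weeks (replicate 5). The SHH subgroup had 2 libraries of 2 mice, both from the striatum and subventricular zone, at 14 weeks (replicate 1) and 16 weeks (replicate 2). Cells were freed with Accutase, red cells were lysed, viable cells were sorted by exclusion of 7-AAD, and the 3' ends of their RNAs were counted on the 10x Chromium platform.

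Endothelial cells line all blood vessels and are held together by junction proteins such as claudin 5 and VE-cadherin. In the brain they form the blood-brain barrier: tight junctions seal the gaps, dedicated transporters carry glucose, lipids and hormones, and Wnt/beta-catenin signalling maintains both. Mural cells, the pericytes of capillaries and the smooth muscle cells of larger vessels, wrap the endothelium, answer to PDGF-B from it and share a basement membrane with it.

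The files held 24433 barcodes, beside the 24199 cells that the study states, and the kept cells had median depths of 1728 to 9346 UMIs by library. MYC replicate 5 was by far the largest library, with 15253 kept cells and 111985990 UMIs, and it was sequenced at 2 times, as was SHH replicate 1. Across libraries, 230 barcode sequences occurred more than once, and none of the 62 cells carried one of them. Animals, not cells, would be the replicates. Because the 62 cells come from 1 library, their genes could not be compared between animals or between the MYC and SHH subgroups. The values below therefore compare cells within MYC replicate 5, carry no p-value, and have exact Poisson or exact binomial 95% intervals that cover counting error only. Where a count was 0, the share or level said to be allowed is that of 3 counts. The upper end of the exact 95% interval is higher, for instance 0.162% against 0.132% for the share in MYC replicate 4.

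In MYC replicate 5 the gated cells made up 0.406% of kept cells (62 of 15253, 0.312% to 0.521%). Among the cells that passed the immune part of the rule they made up 0.905% (62 of 6852). Of the 3668 immune cells of this library, 28 (0.763%) also had 2 or more gate genes. The other MYC libraries held 0 of 346 cells (replicate 1), 0 of 445 (replicate 2), 0 of 183 (replicate 3) and 0 of 2270 (replicate 4), which allow shares of up to 0.867%, 0.674%, 1.64% and 0.132%. SHH replicates 1 and 2 held 0 of 3733 and 0 of 1708 cells, which allow up to 0.0804% and 0.176%. MYC replicates 1, 2 and 3 were thus too small to show a share like that of MYC replicate 5, while the limits of MYC replicate 4 and both SHH libraries lay below it. These 3 libraries were shallower, with median depths of 1728, 2351 and 3284 UMIs against 6060 UMIs in MYC replicate 5, and the part of depth in their 0 counts cannot be read from these limits. Over animals, the share averaged 0.102% ± 0.203 in 4 MYC mice and 0% in both SHH mice (SD). The difference of 0.102 points had an exact two-sided permutation p of 1 over 15 splits of the 6 mice. The smallest p that 6 mice allow is 0.0667, and with gated cells in 1 MYC mouse alone the p is 1 whatever the share. With every cell of 1000 or more UMIs thinned to 1000 UMIs, 21 cells of MYC replicate 5 (0.138%) and no cell of another library met the rule. Shallower cells were left out: 129 in MYC replicate 4, 461 in SHH replicate 1 and 101 in SHH replicate 2. Even before that loss, the exact upper end of MYC replicate 4 (0.162%) and the limit of SHH replicate 2 (0.176%) lay above 0.138%. At this depth their 0 counts thus do not show a lower share. The files list only genes seen in 3 or more barcodes: all 6 gate genes were listed for MYC replicate 5, and 2 to 4 of them for each other library, so a gate gene found in 1 or 2 barcodes there counts as 0.

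The 62 cells were divided by genes that the rule did not use, 14 endothelial identity genes such as Pecam1, Kdr, Esam and Eng, and 13 mural identity genes such as Pdgfrb, Vtn, Higd1b and Des. The 20 endothelial-like cells had 2 to 12 endothelial identity genes (median 8) and 0 mural ones. The 3 Rgs5-high cells had 8, 10 and 11 mural identity genes and the same 3 endothelial ones, Esam, Eng and Ecscr. Another 2 cells had 2 mural identity genes and no endothelial one, at 32907 and 11166 UMIs, and stay unnamed. The other 37 cells had 0 or 1 gene of each set and are called unplaced below. The number of gate genes separated these classes: of 24 cells with 3 or more gate genes, 21 had 2 or more endothelial identity genes, whereas of 38 cells with exactly 2 gate genes, 34 were unplaced. Just outside the threshold, 724 non-immune cells of the library had 1 gate gene, and 8 of them had 2 or more endothelial identity genes. Among the putative doublets marked by a Scrublet score were 5 of the 62 cells, of which 2 were endothelial-like and 0 Rgs5-high.

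**Figure D1:**
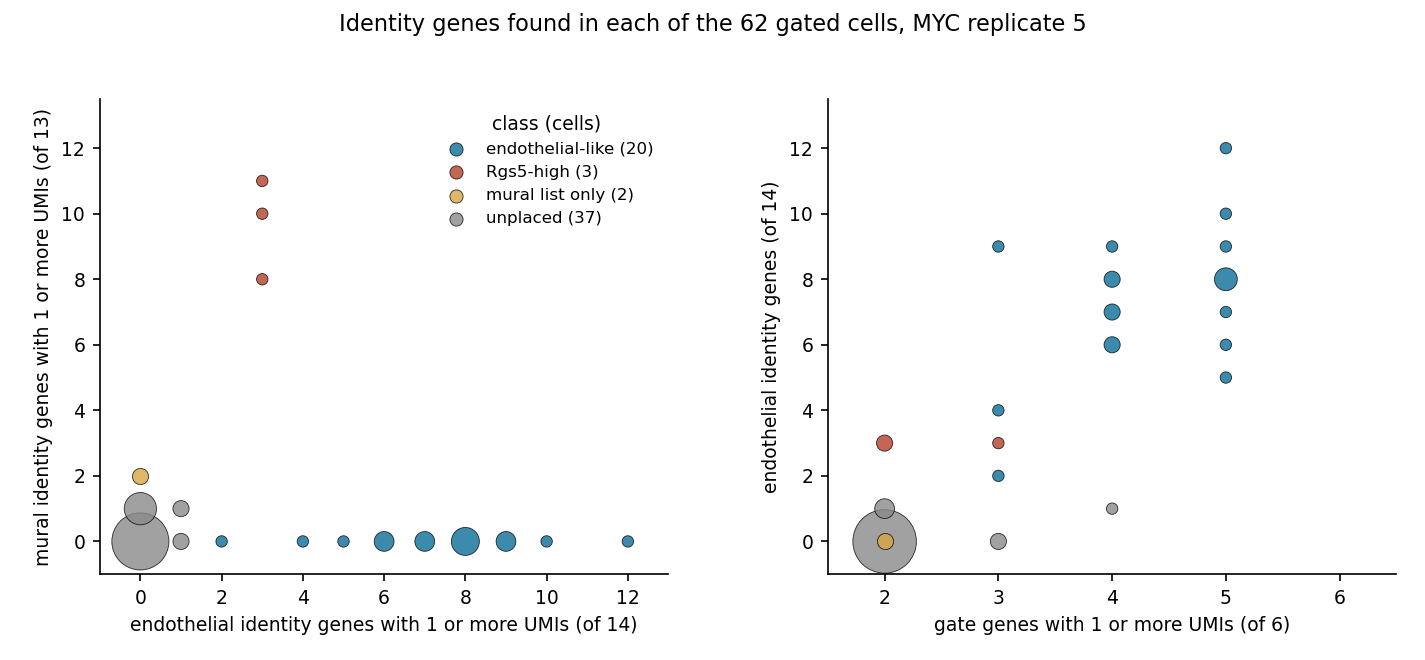
Identity genes in the 62 gated cells of MYC replicate 5. Left, the number of endothelial identity genes (horizontal axis, of 14) against mural identity genes (vertical axis, of 13) with 1 or more UMIs; right, the number of gate genes (horizontal axis, of 6) against endothelial identity genes. Circle area is proportional to the number of cells and colour gives the class; the 20 endothelial-like cells lie along the horizontal axis, the 3 Rgs5-high cells have 8 to 11 mural genes, and most unplaced cells sit at 0 on both axes with 2 gate genes.

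Of the gate genes, all 20 endothelial-like cells had Cldn5, the main tight junction claudin of brain endothelium (chromosome 16, 18776847 to 18778262, GRCm38), at 2 to 55 UMIs with a median of 18. All 20 also had Egfl7, which encodes a protein that endothelial cells secrete into their matrix (chromosome 2, 26580014 to 26593120), at 3 to 27 UMIs with a median of 8. Cdh5, the gene of VE-cadherin (chromosome 8, 104101625 to 104144511), was found in 15 cells with 39 UMIs. Flt1, the gene of VEGF receptor 1 (chromosome 5, 147561604 to 147726011), was found in 16 cells with 52 UMIs. Emcn, the gene of the surface sialomucin endomucin (chromosome 3, 137341067 to 137432185), was found in 14 cells with 37 UMIs. Rgs5, a G-protein signalling regulator of pericytes (chromosome 1, 169655501 to 169695813), had 3 UMIs in 2 of the 20 cells and 21, 71 and 95 UMIs in the Rgs5-high cells. Of 3668 immune cells of the library, 1.17% had a Cldn5 UMI, 3.44% an Egfl7 UMI and 2.26% a Flt1 UMI. Their median depth was 5204 UMIs, against 3907 UMIs in the endothelial-like cells. Since these 6 genes chose the cells, their values only describe the choice.

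Of the 5 gate genes with a promoter window, 3 are shown, picked by how their UMIs fell on the classes. Match counts of the others are not given. Cldn5 was found in all 20 endothelial-like, none of the 3 Rgs5-high and 29 of the 37 unplaced cells. Rgs5 was highest in the Rgs5-high cells, and Emcn occurred in 14 endothelial-like, 2 Rgs5-high and 1 unplaced cell. Each window runs from 250 bases before to 50 bases after the RefSeq start (GRCm38.p6), written on the gene's own strand, chr16:18776597-18776896 (+), chr3:137340828-137341127 (+) and chr1:169655251-169655550 (+), and capitals mark GGAA or its reverse complement TTCC, the core bound by ETS factors such as the endothelial factor Erg.
Cldn5: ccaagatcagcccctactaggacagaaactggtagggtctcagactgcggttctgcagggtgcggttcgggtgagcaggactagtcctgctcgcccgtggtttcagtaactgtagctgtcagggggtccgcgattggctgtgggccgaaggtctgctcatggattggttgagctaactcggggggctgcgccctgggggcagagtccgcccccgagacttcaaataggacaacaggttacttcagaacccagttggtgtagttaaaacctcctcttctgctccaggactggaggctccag
Emcn: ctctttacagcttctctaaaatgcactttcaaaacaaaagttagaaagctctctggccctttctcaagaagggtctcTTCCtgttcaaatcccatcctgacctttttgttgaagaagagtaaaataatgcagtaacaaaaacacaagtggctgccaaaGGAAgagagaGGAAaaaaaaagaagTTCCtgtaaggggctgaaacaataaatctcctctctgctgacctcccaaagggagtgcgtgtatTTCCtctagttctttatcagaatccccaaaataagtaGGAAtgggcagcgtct
Rgs5: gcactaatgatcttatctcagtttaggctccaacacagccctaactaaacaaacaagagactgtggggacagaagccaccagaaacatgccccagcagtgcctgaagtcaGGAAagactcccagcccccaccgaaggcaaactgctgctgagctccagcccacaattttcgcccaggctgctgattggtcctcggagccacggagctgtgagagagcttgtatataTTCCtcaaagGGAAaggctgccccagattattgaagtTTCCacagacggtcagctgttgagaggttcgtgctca
These matches, which cannot overlap each other, numbered 0 in the Cldn5 window, 6 in the Emcn window and 4 in the Rgs5 window. Of 32851 promoter windows of the same length, 4.02% had 0 matches, 15.7% had 6 or more and 46.3% had 4 or more, and a match is only a run of letters, not a shown binding site.

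**Figure D2:**
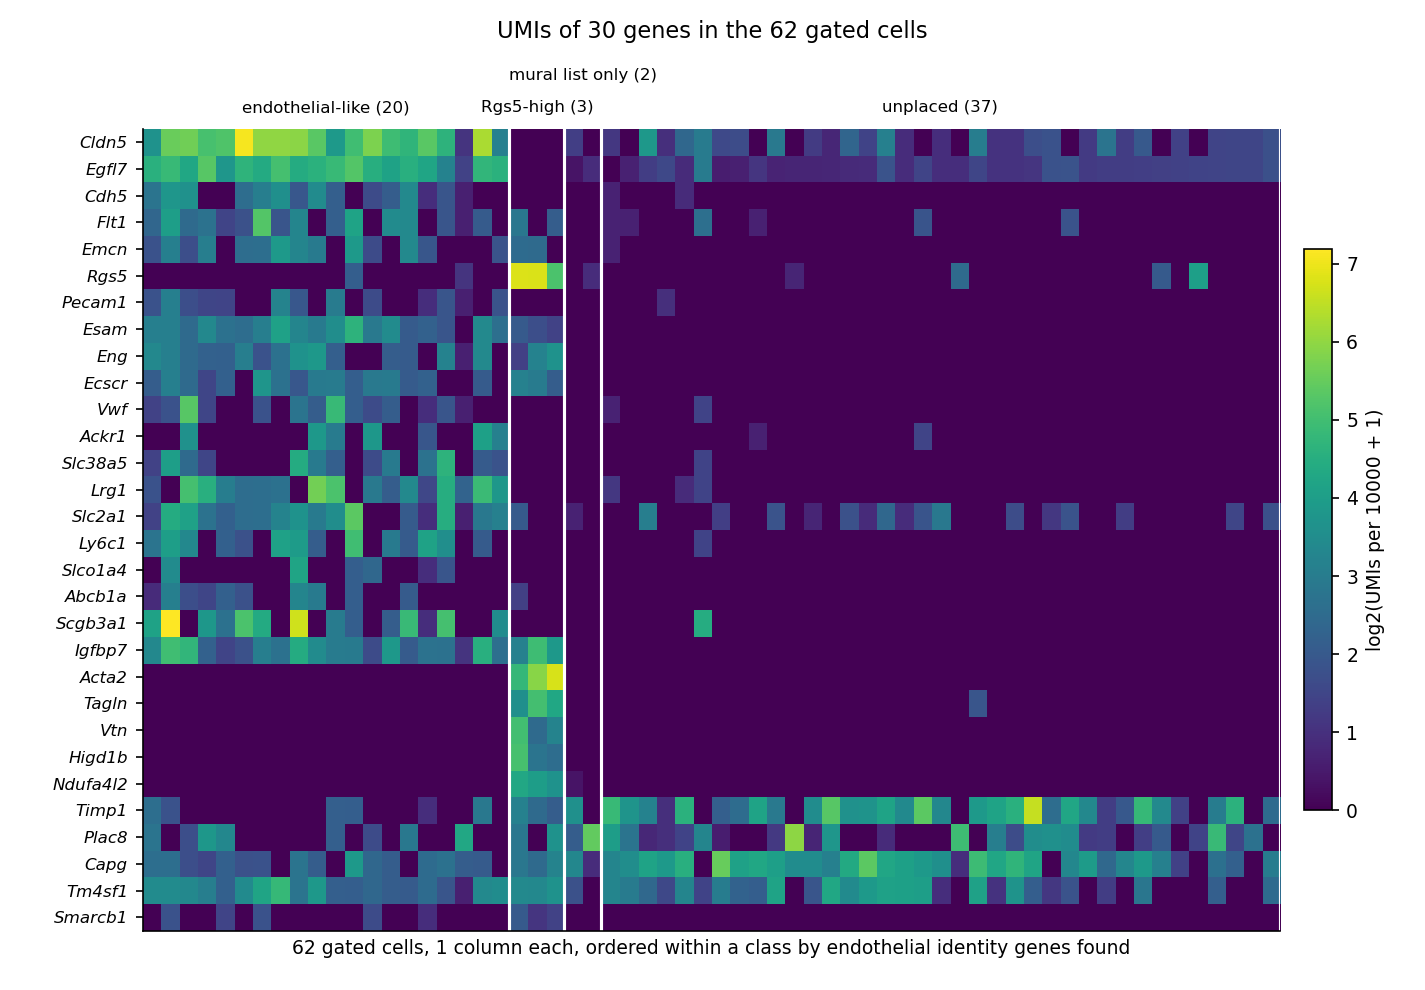
UMIs of gate, vessel, mural and tumour genes in the 62 gated cells, 1 column per cell, grouped by class. Colour gives log2(UMIs per 10000 UMIs of the cell + 1). The endothelial-like cells hold the junction, venous and transporter genes, and the Rgs5-high cells hold Acta2, Tagln, Vtn, Higd1b and Ndufa4l2. The unplaced cells hold Timp1 and Capg with little beyond Cldn5 and Egfl7. Tm4sf1 is found in all endothelial-like and Rgs5-high cells and in 75.7% of unplaced cells, so it does not mark the unplaced class.

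The 37 unplaced cells had a median of 10928 UMIs against 6373.5 UMIs in the 6790 other non-immune cells of the library. In 26 of them the only gate genes were Cldn5 and Egfl7. Over all 37 cells the median count was 1 UMI for each of these genes, with up to 18 UMIs of Cldn5 and 4 of Egfl7. Endothelial identity genes are low in them by definition. Outside those genes, Vwf had 2 UMIs among 390635 and Cd34 had 2, against 39 and 47 UMIs among 105548 in the endothelial-like cells. An exception was 1 cell of 5791 UMIs with 4 Cldn5, 3 Flt1, 4 Egfl7 and 12 Scgb3a1 UMIs. It had 1 UMI each of Vwf, Slc38a5, Lrg1, Ly6c1 and Aplnr, and 8 barrier genes. Of MYC tumour genes, it had 5 UMIs of Plac8, 1 of Tm4sf1 and 0 of Timp1 and Capg. Another unplaced cell, a putative doublet of 16029 UMIs, had 4 gate genes (Cldn5, Cdh5, Flt1 and Emcn). It also had 1 Vwf UMI, 2 Lrg1 UMIs and 44 Timp1 UMIs. Both cells were singled out after their values were seen. Of 9 genes that an earlier analysis of these data gave to the MYC tumour cells, some were higher in the unplaced cells and Plac8 was lower (643 against 1403 UMIs per 1000000 UMIs of the class, CPM). Timp1, a metalloproteinase inhibitor, stood at 1403 CPM (548 UMIs in 32 cells) against 582 CPM in the other non-immune cells. Capg, an actin-capping protein, stood at 1503 CPM against 448 CPM. Over all 9 genes, the per-cell level ran from 172 to 13401 CPM with a median of 4216 in the unplaced cells, against 0 to 36937 CPM with a median of 1813 in the other non-immune cells. Among the 15 genes highest in them over the other non-immune cells were Angptl7 (358 CPM against 18.7 CPM), Cited1 (310 against 25.2 CPM) and Cst6 (1498 against 208 CPM), and 519 of the 585 Cst6 UMIs lay in 1 cell. None of the 15 was on a vessel list.

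Against the other non-immune cells, the 62 gated cells summed had 71 genes at least 4-fold higher on log2(CPM + 10), which is 0.376% of the 18879 genes compared, and 13 genes at least 4-fold lower, or 0.0689%. The 20 endothelial-like cells had 354 genes at least 4-fold higher, or 1.88%, and 191 genes at least 4-fold lower, or 1.01%. The 6 gate genes and the 4 immune genes of the rule are left out of these counts, but 13 of the 354 are endothelial identity genes that chose the class. In the endothelial-like cells 1 UMI is worth 9.47 CPM, so a gene at 0 elsewhere needed 4 UMIs to be counted as higher. A gene at 0 UMIs in the endothelial-like cells needed 30 CPM in the other non-immune cells to be counted as lower. The median difference over all genes compared was -0.04.

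The genes with the largest differences in the endothelial-like cells included many known vessel genes. Scgb3a1, which encodes a small secreted secretoglobin, led with 1649 CPM (174 UMIs in 14 cells, 1413 to 1913) against 0.08 CPM, and 1 cell held 57 of its UMIs. Lrg1, a secreted glycoprotein that modulates TGF-beta signalling in endothelium, stood at 966 CPM (102 UMIs in 17 cells) against 0.26 CPM. Tmem252, a membrane protein gene, stood at 1175 CPM in 19 cells against 2.11 CPM, and Gng11, a G-protein gamma subunit, at 1146 CPM in 19 cells against 2.71 CPM. Igfbp7, a binding protein of insulin-like growth factors in the vessel matrix, was found in all 20 cells at 777 CPM against 1.11 CPM, and the matrix protein gene Sparcl1 stood at 597 CPM against 1.19 CPM. Cd34, a sialomucin of endothelial and progenitor cells, was also found in all 20 cells, at 445 CPM against 0.24 CPM. Cd93, a C-type lectin-like receptor of endothelium, stood at 464 CPM in 17 cells against 0.14 CPM, and the growth factor binding protein Igfbp3 at 635 CPM in 12 cells against 3.24 CPM. The GTPase gene Gimap6 stood at 407 CPM in 13 cells against 0.99 CPM. Glycam1, a mucin-like ligand of L-selectin made by high endothelial venules, had 115 UMIs in the class, all of them in 1 cell, so its place among the leading genes rests on that cell.

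Blood-brain barrier genes were found in each endothelial-like cell, in varying number. These cells carried 2 to 15 genes of the barrier list each (median 10), against 0 to 8 (median 3) in the other non-immune cells. Some list genes are not particular to vessels: Bsg was found in 96.1% of the other non-immune cells. All 20 genes had a UMI in the class, though Tfrc and Slc22a8 had only 1 each. Of the 20 genes, 12 were at least 4-fold higher, with a median difference of 2.71 over the list. The glucose transporter gene Slc2a1 had 0 to 12 UMIs per cell with a median of 2, was found in 18 cells and stood at 625 CPM (484 to 796) against 34.6 CPM. The organic anion and thyroid hormone transporter genes Slco1a4 and Slco1c1 were found in 6 cells each, at 142 and 123 CPM against 0.16 and 0.59 CPM. Abcb1a, the efflux pump P-glycoprotein, was found in 10 cells at 152 CPM against 0.26 CPM, and Abcg2, another efflux pump, in 12 cells at 180 CPM against 15.4 CPM. Mfsd2a, the lipid transporter that limits transcytosis, had 6 UMIs in 6 cells. Among junction genes, occludin (Ocln) stood at 85.3 CPM against 13.8 CPM, while Tjp1, the scaffold ZO-1, stood at 94.7 CPM against 149 CPM. Of 11 measured genes of the Wnt pathway of brain endothelium, 5 were at least 4-fold higher: the transcription factors Lef1 (10 UMIs), Foxq1 (5) and Foxf2 (10), the receptor Fzd4 (4) and its partner Tspan12 (5).

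Along the vessel tree, venous genes were the better represented. Vwf, the von Willebrand factor gene, was found in 14 of the 20 cells at 0 to 17 UMIs (370 CPM against 0.08 CPM). Slc38a5, an amino acid transporter of venous and capillary endothelium, was found in 13 cells (388 CPM against 0.12 CPM), and Ackr1, the chemokine-binding receptor of venules, in 7 cells (265 CPM against 4.43 CPM). Of the 7 venous genes 4 were at least 4-fold higher, beside 1.88% of all genes compared. Besides these 3, the count includes Tmsb10 (4339 CPM against 575 CPM). It is not particular to vessels, being found in 80.2% of the other non-immune cells. Nr2f2, the transcription factor of venous identity, did not differ by that much (114 CPM against 89.3 CPM), nor did Ephb4 (3 UMIs) and Lcn2 (1 UMI). None of 9 measured arterial genes was 4-fold higher: the gap junction genes Gja4 and Gja5, the kinase gene Bmx and the semaphorin gene Sema3g had 0 UMIs, which allows up to 28.4 CPM each, and Efnb2 had 1 UMI, while Mgp had 14 UMIs in 3 cells. The lymphatic genes Prox1 and Lyve1 had 0 UMIs as well, and Flt4, the gene of VEGF receptor 3, had 4.

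Of 15 genes of sprouting and fenestrated vessels, 6 were at least 4-fold higher. Col4a1, Col4a2 and Igfbp3, which are not particular to such vessels, were found in 16, 12 and 12 of the 20 cells, and the other 3 in fewer. Plvap, the diaphragm protein of fenestrated endothelium, had 2 UMIs in 1 cell, and the tip cell gene Esm1 had 0 UMIs. The apelin receptor gene Aplnr had 14 UMIs in 6 cells (133 CPM against 0.26 CPM), and its ligand gene Apln had 11 UMIs in 2 cells, 10 of them in 1 cell. Angpt2, the Tie2 ligand of activated endothelium, had 6 UMIs in 3 cells (56.8 CPM against 0.49 CPM).

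The signalling lists hold ligands, receptors and targets. In the VEGF list, the ligand genes Vegfa and Vegfb had 0 UMIs in the endothelial-like cells, and Vegfa stood at 11.1 CPM in the other non-immune cells and 14.8 CPM in immune cells. The receptor gene Kdr had 20 UMIs in 11 cells (189 CPM against 0.95 CPM), and the co-receptor genes Nrp1 and Nrp2 stood at 265 and 133 CPM against 2.33 and 10.3 CPM. Immune cells also had Kdr, at 28.8 CPM, and Nrp1, at 46.3 CPM. In the angiopoietin list, Tie1 had 9 UMIs, Tek, the gene of Tie2, had 5, and Ptprb, the phosphatase that restrains Tie2, had 32 UMIs in 14 cells (303 CPM against 0.06 CPM, which rests on 3 UMIs). Kdr, Tie1 and Tek are endothelial identity genes that helped choose the class, so their values partly describe that choice. Of the Notch list only the receptor gene Notch1 was at least 4-fold higher (104 CPM against 10.5 CPM), and the target gene Hes1 stood at 388 CPM against 91.9 CPM. Of the TGF-beta and BMP list 2 of 10 were at least 4-fold higher, both endothelial receptors: Eng, which also chose the class, and Acvrl1, the gene of ALK1 (161 CPM in 11 cells against 1.64 CPM). Pdgfb, which recruits pericytes, had 6 UMIs in 5 cells, and the flow-induced factor gene Klf2 stood at 208 CPM in 12 cells against 40.5 CPM.

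Basement membrane genes were carried by the endothelial-like and the Rgs5-high cells alike. Col4a1, a collagen IV chain, stood at 360 CPM in the endothelial-like cells and 1234 CPM in the Rgs5-high cells, against 13.3 CPM in the other non-immune cells. Nid1, the linker nidogen, stood at 75.8 and 617 CPM in the same classes, against 0.85 CPM. Sparc, a collagen-binding matrix protein, was found in every cell of both classes at 4500 and 6073 CPM, against 1571 CPM. It was also found in 94.2% of the other non-immune cells, and both differences (1.51 and 1.94 on the log2 scale) were below 4-fold. Of the 11 genes of the list 5 were at least 4-fold higher in the endothelial-like cells and 0 at least 4-fold lower. Only genes at 30 CPM or more in the other non-immune cells could be counted as lower.

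Genes by which endothelium captures leukocytes were at least 4-fold higher for 7 of 13. Besides Cd34 these included Icam2 (171 CPM in 9 cells against 0.36 CPM) and Vcam1 (180 CPM in 6 cells against 28.7 CPM), whose product binds leukocyte integrins. P-selectin (Selp) and E-selectin (Sele) had 4 UMIs each, and Sele had 0 UMIs in the other 6790 cells. The chemokine gene Ccl2 had 0 UMIs, against 47.2 CPM in the other non-immune cells, and the interferon-induced chemokine gene Cxcl10 stood at 199 CPM against 697 CPM. None of the 11 MHC class I genes was at least 4-fold higher, with B2m at 5675 CPM against 4132 CPM, and 2 of 20 interferon-response genes were, Gbp3 and Ifi44. None of the 15 cell cycle genes was at least 4-fold higher and 5 were at least 4-fold lower. Birc5, Cenpf, Ube2c and Ccnb1, all mitotic genes, had 0 UMIs against 115, 83.6, 63.0 and 42.4 CPM.

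**Figure D3:**
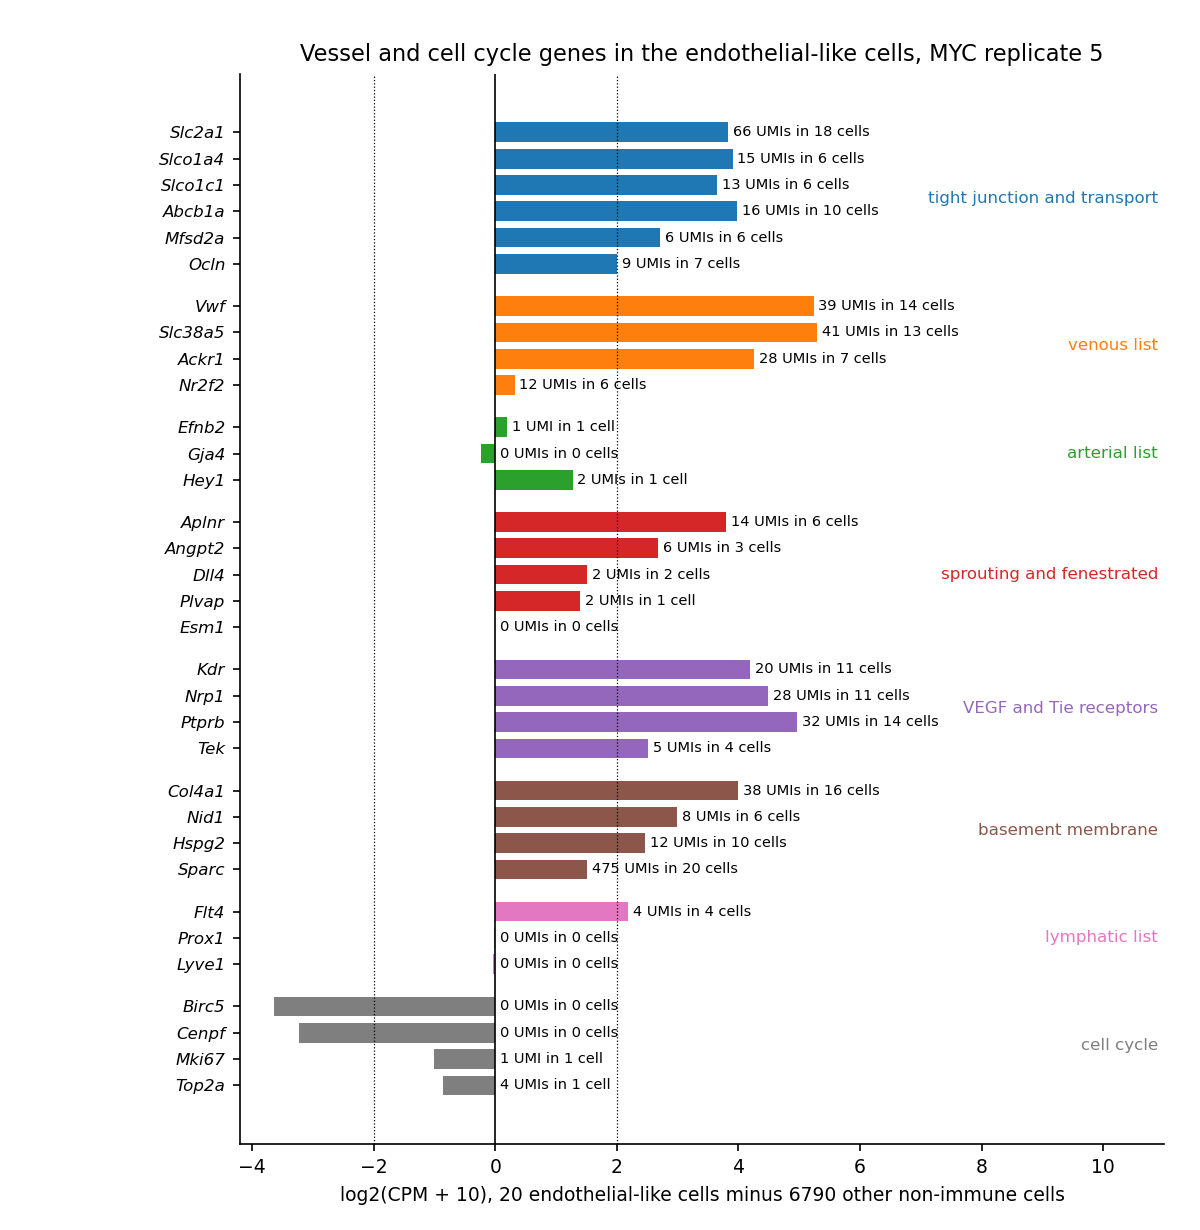
Vessel and cell cycle genes in the 20 endothelial-like cells of MYC replicate 5, grouped and coloured by list. Kdr and Tek are among the identity genes that chose the class. Bars give the difference of log2(CPM + 10) from the 6790 other non-immune cells, dotted lines mark 4-fold, and the text beside a bar gives the UMIs and cells behind it; Vwf, Slc38a5 and Ptprb reach about 5, while the arterial genes, Prox1 and Lyve1 lie near 0 or rest on 1 or 2 UMIs.

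Markers of other cells were measured in the same 20 cells. The 12 measured immune genes outside the rule summed to 502 CPM, against 352 CPM in the other non-immune cells and 15736 CPM in immune cells. The 9 MYC tumour genes summed to 1810 CPM, against 2861 CPM in the other non-immune cells, and Tm4sf1 was the only one at least 4-fold higher, found in all 20 cells (692 CPM against 145 CPM). Tm4sf1 is also a known endothelial gene. Timp1 was found in 6 of the 20 cells at 114 CPM, and Plac8 in 8 cells at 550 CPM. The fibroblast list had 0 of 10 genes at least 4-fold higher and 2 lower, Dcn and Pdgfra, and the hypoxia and glycolysis list had 2 of 14 higher, Slc2a1 and Ndrg1, and 2 lower, Hk2 and Bnip3. The astrocyte list summed to 56.8 CPM against 122 CPM, and 6 of its 7 genes had 0 UMIs. The 15 cell cycle genes summed to 275 CPM against 846 CPM, and the 14 genes induced by tissue handling to 7125 CPM against 4591 CPM. Neither the part of RNA from tumour cells nor that of tissue handling in the levels above was tested. The platelet gene Pf4 and the haemoglobin genes Hba-a1 and Hba-a2 had 0 UMIs, and all 12 measured mural identity genes had 0 UMIs.

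The endothelial-like cells varied among themselves, a pattern chosen for description after the values were seen. The 7 cells with Ackr1 held 28 of the 39 Vwf UMIs (859 CPM, against 151 CPM in the 13 cells without Ackr1). However, 1 of these cells had 17 of the UMIs and another had 8. As a share of cells Vwf hardly differed, being found in 5 of the 7 cells with Ackr1 and 9 of the 13 without. Lrg1 stood at 1778 CPM in the Ackr1 cells against 603 CPM, Vcam1 at 491 against 41.1 CPM, and all 4 Selp UMIs lay in Ackr1 cells. The 13 cells without Ackr1 held 167 of the 174 Scgb3a1 UMIs (215 CPM with Ackr1, against 2290 CPM without), 57 of them in 1 cell. Barrier transporters were found on both sides: of 15 cells with a UMI of Slco1a4, Slco1c1, Mfsd2a or Abcb1a, 5 also had Ackr1. Slc2a1 stood at 552 CPM with Ackr1 and 658 CPM without.

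The 3 Rgs5-high cells, with 6370, 8693 and 6015 UMIs, carried pericyte and smooth muscle genes together. Rgs5 had 71, 95 and 21 UMIs in them, in that order. Vtn, the vitronectin gene of brain pericytes, had 20, 4 and 5 UMIs, and the pericyte gene Higd1b had 21, 5 and 3, so the first cell was highest for both. Acta2, smooth muscle actin, was lowest in the first cell with 17, 51 and 64 UMIs, and Tagln, its partner protein transgelin, had 7, 28 and 11. Kcnj8, a potassium channel subunit of pericytes, had 6 UMIs in the first cell and 0 in the others. Pdgfrb, the receptor for PDGF-B, had 3, 1 and 3 UMIs, and desmin (Des) had 6, 5 and 5. Of the other contractile genes, the myosin light chain gene Myl9 had 53 UMIs in all 3 cells, the actin gene Actg2 24 UMIs in 2 cells and the kinase gene Mylk 15 UMIs in 3 cells, whereas Myh11 and Cnn1 had 2 UMIs each. As sums over the class, Acta2 stood at 6262 CPM against 7.13 CPM in the other non-immune cells, Vtn at 1376 CPM against 0.24 CPM and Ndufa4l2 at 1518 CPM against 1.32 CPM. Mgp, a matrix calcification inhibitor on the arterial list, stood at 7876 CPM against 126 CPM. Fibroblast genes were mixed: Col1a1 had 23 UMIs and Col3a1 28 UMIs, at 1091 and 1328 CPM against 127 and 186 CPM, while Dcn stood at 237 CPM against 408 CPM and Lum had 1 UMI (47.4 CPM against 177 CPM). Pdgfra had 0 UMIs, which allows up to 142 CPM in 3 cells. Since mural identity genes chose these cells, the mural values describe the choice.

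Smarcb1 (chromosome 10, 75896769 to 75921617, GRCm38) was found in endothelial-like and Rgs5-high cells and in none of the unplaced ones. The endothelial-like cells had 5 UMIs in 5 of 20 cells, or 47.4 CPM (15.4 to 111), and the Rgs5-high cells had 2, 1 and 1 UMIs, or 190 CPM (51.7 to 486). The unplaced cells had 0 UMIs among 390635, which allows up to 7.68 CPM, and the 2 other cells had 0 among 44073, which allows up to 68.1 CPM. The other non-immune cells had 84 UMIs among 49385934, or 1.70 CPM (1.36 to 2.11), and immune cells 803 UMIs, or 32.4 CPM (30.2 to 34.7). The interval of the endothelial-like cells thus lay above the level of the other non-immune cells and held that of immune cells. As a share of cells with a UMI, it was 25.0% of endothelial-like cells (8.66% to 49.1%), against 1.21% of other non-immune cells and 19.0% of immune cells, at median depths of 3907, 6373.5 and 5204 UMIs. Without the 2 putative doublets the endothelial-like cells kept all 5 UMIs, at 59.8 CPM.

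Over all 62 gated cells, Smarcb1 stood at 16.0 CPM (9 UMIs, 7.33 to 30.4). That was 2.66 higher than the other non-immune cells on log2(CPM + 1), with a counting interval of 1.63 to 3.54, and -0.97 from immune cells, with an interval whose upper end was -0.09. The direction against immune cells turned where all or most unplaced cells were left out: it was 0.53 for the endothelial-like cells alone and 0.56 for the 24 cells with 3 or more gate genes, of which 3 were unplaced. All 9 UMIs came from 1 animal, and no test across animals could be made. Of the other 11 SWI/SNF subunits none differed by 4-fold in the endothelial-like cells: the ATPase gene Smarca4 stood at 85.3 CPM against 97.3 CPM, and Smarcc1 at 47.4 CPM against 70.0 CPM. The labels used here do not say which exons the floxed allele loses, and the counted 3' ends can lie outside them, so Smarcb1 UMIs alone do not show whether a cell had recombined.

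**Figure D4:**
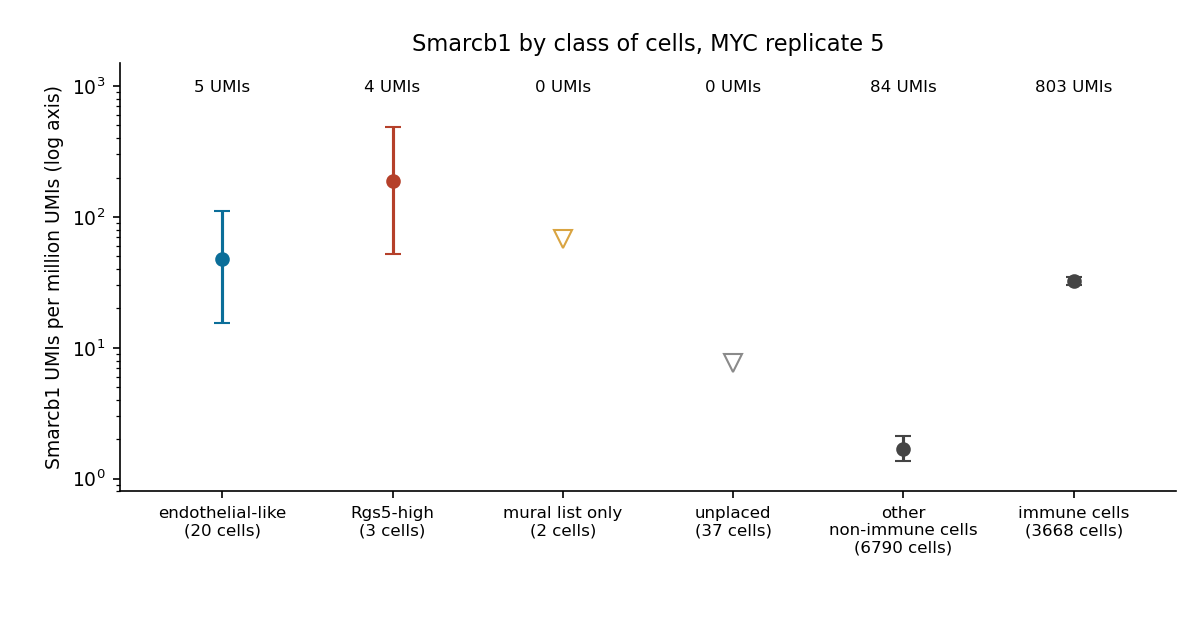
Smarcb1 in 6 classes of cells of MYC replicate 5, in CPM on a log axis. Points are sums over the class with exact Poisson 95% intervals (counting error only), open triangles mark the level that 3 UMIs would give where the count was 0, and the number above each class is its Smarcb1 UMIs; the endothelial-like and Rgs5-high cells lie above the other non-immune cells and near or above the immune cells.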

How the data were processed

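Per the labels, single cells of 7 tumour samples were measured with 10x Chromium 3' chemistry. The authors deposited raw UMI counts per gene and barcode, not normalized. Cell Ranger 2.0.2 and the build mm10 are named in the submitters' processing notes. Genes missing from a library's table counted as 0. Members and gene lists were chosen with earlier results of these data known, and the MYC tumour genes come from that earlier analysis. Cells are not replicates; MYC replicates 2 and 3 were taken as 1 mouse because their titles share a number.

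Non-immune cells passed the immune part of the rule; immune cells had Ptprc and 2 or more UMIs over Tyrobp, Fcer1g and Cd3g. Counts were summed per class and scaled to CPM (Python 3.11.15, numpy 2.4.6, scipy 1.17.1). A pseudocount of 10 CPM was used for fold changes and 1 CPM for Smarcb1. The fold rule and the permutation function were checked on simulated data. A difference counted as at least 4-fold from 2 on the log2 scale. By the rule for named genes these were the 15 largest differences over the gated cells without pseudogene-type symbols, Smarcb1, the gate genes and up to 6 genes of each list. The classes, their own leading genes and further list members were taken up after their values were seen. Doublets were scored with Scrublet in scanpy 1.11.5 in libraries of 200 or more cells (0.8% per 1000 cells) and kept in the main values. Coordinates are GENCODE vM21 (GRCm38, the assembly that mm10 names) and promoter sequences are from RefSeq (GRCm38.p6). A test of genes between subgroups was planned and not run, since no SHH mouse had a gated cell.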

Additional observations from a re-analysis of the deposited data

Results flagged for a closer look

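The share of gated cells in MYC replicate 5, 0.406% of kept cells, was picked out by Dixon's test for the highest of 4 values, beside 0% in each of the other 3 MYC mice. With 3 values at 0 any share above 0 is picked out, and the libraries of MYC replicates 1, 2 and 3 allow shares above 0.406%, so the flag does not show that they differ. Chance flags about 1 group in 20 where values are not tied. That library was also the largest and was sequenced in 2 runs, and 21 cells (0.138%) remained in it after thinning to 1000 UMIs per cell. The part of library size and sequencing in this gap was not tested.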

How the results depend on the processing

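The MYC minus SHH share of gated cells has an exact p of 1 by construction while 1 mouse holds all gated cells, so its p says nothing of stability. Leaving out each mouse in turn gave 0 (without MYC replicate 5) to 0.135 points. Smarcb1 in gated minus other non-immune cells, 2.66 on log2(CPM + 1), was 4.19 with 3 or more gate genes, 4.31 with 2 or more identity genes, 4.16 for endothelial-like cells alone (chosen after seeing the data) and 1.15 with a pseudocount of 10 CPM, and stayed within its counting interval under 4 other settings. The difference from immune cells, -0.97, turned to 0.56, 0.69 and 0.53 under the first 3 of these settings and stayed below 0 under 4 others. The count of genes at least 4-fold higher, 71, became 264, 240 and 354 under the same 3 settings and 422 with a pseudocount of 1 CPM. Of the 37 unplaced cells, 3 remain with 3 or more gate genes and 0 with 2 or more identity genes or for endothelial-like cells alone; the lower pseudocount lowers the UMIs a gene needs. Leaving out MYC replicate 5 leaves no gated cell, and leaving out another mouse changes none of the values within that library. The edgeR comparison of subgroups and its alternatives were not run, as no SHH mouse had a gated cell. No paired analysis was possible because the replicate numbers mark different mice and every gated cell came from 1 library. Depth limits each class: 0 UMIs allow up to 28.4 CPM in the endothelial-like, 142 CPM in the Rgs5-high and 7.68 CPM in the unplaced cells.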

Other observations

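Cells with vessel genes also lay outside the rule. In MYC replicate 5, 22 cells with 3 or more gate genes failed the immune part, and 12 of them had Ptprc at 0. They held 2 to 11 endothelial identity genes (median 7), beside a median of 8 UMIs over Tyrobp, Fcer1g and Cd3g, and 1 of them had 9 mural identity genes. Their Smarcb1 level was 53.7 CPM (9 UMIs, 24.6 to 102), and 55.2 CPM (15.1 to 141) in the 12 with Ptprc at 0. Whether these barcodes held 1 cell or several was not tested.

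Another 3 cells of MYC replicate 5 had 7 or 8 mural identity genes and 6 to 31 Rgs5 UMIs but no second gate gene, so the rule left them out; they had 1 Smarcb1 UMI among 18992. Of 155 non-immune cells with Rgs5 outside the rule, 11 had 2 or more mural identity genes. In MYC replicate 2, 8 non-immune cells had 3 or more endothelial identity genes with at most 1 gate gene: Ramp2 was found in 6, Pecam1 and Ecscr in 5 each and Eng in 4, and Kdr and Tie1 in 0. In that library 25 of 130 non-immune cells (19.2%) had 2 or more such genes. The most in a cell was 4, against a median of 8 in the endothelial-like cells. Whether the 8 were vessel cells was not tested.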
